A study of Homo sapiens with 4 samples.

Results

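The SR proteins and the heterogeneous nuclear ribonucleoproteins (hnRNPs) were examined in PC3, an androgen-independent prostate cancer line that was grown from a metastasis in bone. The cells had received a control siRNA or an siRNA to the orphan nuclear receptor COUP-TFII, each at 40 nM, and were collected at 48 h. Members were the array probe sets assigned to exactly 1 gene whose symbol starts with SRSF or HNRNP, older SFRS symbols included. There were 117 such probe sets of 54675 on the array, from 31 of 19775 genes. Of these, 115 probe sets belong to 29 protein-coding genes, 10 SRSF and 19 HNRNP, and are described together. The other 2 belong to the pseudogene HNRNPA3P1 and the divergent transcript HNRNPD-DT and are given apart. Each group held 2 arrays of total RNA, and no group without siRNA was analysed here. Whether the 2 arrays of a group were transfected separately is not given in the labels, so the p-values rest on the spread between arrays that may be technical replicates. In bulk RNA, fewer cells of a kind and less RNA per cell cannot be told apart.

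SR proteins carry RNA recognition motifs and a tail rich in arginine and serine, and bind mostly exonic enhancers, where they help the spliceosome recognise splice sites. The hnRNPs coat nascent transcripts, often oppose SR proteins at silencer elements, and also act in mRNA export, stability and translation. Many genes of both families limit their own level through unproductively spliced transcripts, and in prostate cancer members such as hnRNP A1 and SRSF1 have been tied to the splicing of androgen receptor variants. The arrays read total signal at the probe sites, not the protein and not the splicing of any target.

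The 4 arrays had medians of 31.7 to 32.8, and 31.4% to 33.0% of their values lay below an intensity of 16. All 5 epithelial markers were above the array-wide median of 32.34 on average, and the luminal prostate genes KLK3 and KLK2 were not, at 8.56 to 25.9. The summed intensity of the 5 epithelial markers was 31338 and 31713 in the control arrays and 31546 and 31145 in the COUP-TFII siRNA arrays. Within that sum KRT8 and KRT18 were higher and EPCAM and CDH1 lower in both COUP-TFII siRNA arrays than in both controls, and KRT19 overlapped. The other marker sets had 1 of 3 luminal, 3 of 5 fibroblast, 1 of 4 endothelial and 1 of 4 leukocyte genes above that median. The luminal sum, most of it TMPRSS2, was 180.3 and 176.2 in the control arrays and 426.7 and 430.6 in the COUP-TFII siRNA arrays, and the fibroblast sum 742 and 671 against 1083 and 1062. Of the fibroblast markers above the median, COL1A1 was at 599 and 540.3 against 962 and 949.6, DCN at 39.8 and 44.7 against 26.5 and 32.8, and LUM at 85.3 and 54.0 against 61.3 and 71.5. COL1A1 was thus higher and DCN lower without overlap, and LUM overlapped. For ACTB, the signal of the 3′ control probe set over that of the 5′ one, a ratio that rises as RNA degrades, was 1.52 and 1.83 in the control arrays and 1.42 and 1.46 in the COUP-TFII siRNA arrays. The same ratio for GAPDH was 0.957 and 0.986 against 0.994 and 0.986. The part of these values in the results was not tested. The siRNA target's own level is not reported here, so the labels rest unchecked.

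The promoter windows of 4 members are shown because SRSF7, HNRNPA3 and HNRNPD had the largest decreases among the members past the threshold, and HNRNPDL, a close relative of HNRNPD, rose (it lies 56.2 kb from it, start to start). Each is the 250 bases before the first listed start in RefSeq (GRCh38.p14), read 5′ to 3′ on the gene's strand, and capitals mark a match to one of the motifs searched. The windows are chr2:38751495-38751744, minus strand for SRSF7, chr2:177212544-177212793, plus strand for HNRNPA3, chr4:82373992-82374241, minus strand for HNRNPD and chr4:82430226-82430475, minus strand for HNRNPDL.
SRSF7: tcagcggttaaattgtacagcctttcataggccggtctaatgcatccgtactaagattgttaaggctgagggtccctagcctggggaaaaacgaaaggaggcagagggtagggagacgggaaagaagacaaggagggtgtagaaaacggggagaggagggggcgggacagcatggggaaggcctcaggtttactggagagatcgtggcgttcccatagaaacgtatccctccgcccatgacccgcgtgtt
HNRNPA3: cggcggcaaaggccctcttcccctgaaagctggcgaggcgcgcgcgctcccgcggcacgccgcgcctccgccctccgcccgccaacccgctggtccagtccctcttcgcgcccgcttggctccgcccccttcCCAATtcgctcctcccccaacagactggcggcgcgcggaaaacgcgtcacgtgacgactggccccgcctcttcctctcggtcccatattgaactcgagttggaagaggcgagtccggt
HNRNPD: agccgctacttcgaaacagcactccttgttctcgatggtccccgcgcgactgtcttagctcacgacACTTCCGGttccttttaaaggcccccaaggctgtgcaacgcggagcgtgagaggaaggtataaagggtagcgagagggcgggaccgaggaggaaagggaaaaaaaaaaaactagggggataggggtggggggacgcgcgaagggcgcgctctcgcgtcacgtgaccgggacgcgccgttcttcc
HNRNPDL: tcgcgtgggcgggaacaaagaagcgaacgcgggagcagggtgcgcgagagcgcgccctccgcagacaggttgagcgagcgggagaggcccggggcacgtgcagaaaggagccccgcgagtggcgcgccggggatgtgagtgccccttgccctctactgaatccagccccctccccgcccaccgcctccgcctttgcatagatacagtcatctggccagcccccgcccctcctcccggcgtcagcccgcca

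The window of HNRNPA3 holds a CCAAT box at 118 to 114 bases before the start. That of HNRNPD holds ACTTCCGG, the reverse complement of the ETS-type motif CCGGAAGT, at 184 to 177 bases before its start. The SRSF7 and HNRNPDL windows held no match. Motifs were searched on both strands. The nuclear receptor element AGGTCA was in 1 of the 28 members with an entry (SRSF8) and in 12.1% of 27305 genes, and its direct repeat with 1 base between the copies, which AGGTCA itself overlaps, was in 0 members and 0.0183% of genes. CCAAT was in 14 of 28 members and 33.0% of genes, CCGGAAGT in 3 members (HNRNPD, SRSF4 and SRSF5) and 3.64% of genes, and the E2F forms TTTCCCGC, TTTGGCGC and TTTCGCGC in 2 members (HNRNPLL and SRSF10) and 2.38% of genes. HNRNPA1 had no entry.

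Both families were lower more often than higher after COUP-TFII siRNA on the deposited scale, with most changes under 1.5-fold. Centring on the median of housekeeping genes turned that split to 6 lower and 8 higher genes, and centring on their mean to 6 and 4. With 1 probe set per gene, 10 of 29 genes fell (34.5%) and 4 rose (13.8%), against 10.3% lower and 12.7% higher over all 19775 genes (limma, Benjamini-Hochberg adjusted p under 0.05). Among all genes above the array-wide median the shares were 15.5% lower and 19.3% higher. The genes that fell were SRSF1, SRSF3, SRSF4, SRSF7, HNRNPA2B1, HNRNPA3, HNRNPC, HNRNPD, HNRNPH1 and HNRNPR. The genes that rose were SRSF6, SRSF11, HNRNPDL and HNRNPU. The median log2 fold change was −0.17 over the members and 0.01 over all genes, on the scale log2(intensity + 16), which understates changes of dim genes. The groups did not overlap for 19 genes that were lower (65.5%, against 26.7% of all genes) and 8 that were higher (27.6%, against 30.8%). Both families showed falls, in 4 of 10 SRSF genes (with 2 rises) and 6 of 19 HNRNP genes (with 2 rises).

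The split depended on the level taken as unchanged. Quantile normalization gave 11 lower and 5 higher members, against 11.1% and 13.0% of all genes. Scaling the arrays to 1 median gave 10 and 4, against 10.5% and 13.9%. When the arrays were centred on the median of 21 measured housekeeping genes, the all-gene median went from 0.01 to 0.14. This gave 6 lower and 8 higher members, against 6.84% and 20.8% of all genes, and a member median of −0.04. Centring on their mean gave 6 lower and 4 higher, against 8.62% and 17.0% of all genes. The housekeeping genes themselves were uneven, with HPRT1 at a log2 fold change of −0.77, EMC7 at −0.57 and CHMP2A at 0.27. Each array also mattered, for the members and for the array as a whole. Dropping control replicate 1 left 5 members lower and 1 higher, against 4.48% and 5.45% of all genes, and dropping control replicate 2 left 6 lower and 0 higher (limma; 3 higher at an unadjusted p under 0.05), against 4.76% and 4.46%. Dropping COUP-TFII siRNA replicate 1 left 7 lower and 1 higher, against 6.93% and 4.84%, and dropping COUP-TFII siRNA replicate 2 left 6 and 2, against 5.69% and 6.18%. With 2 arrays against 2, an exact permutation test of a single gene cannot give a two-sided p below 0.333.

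**Figure D1:**
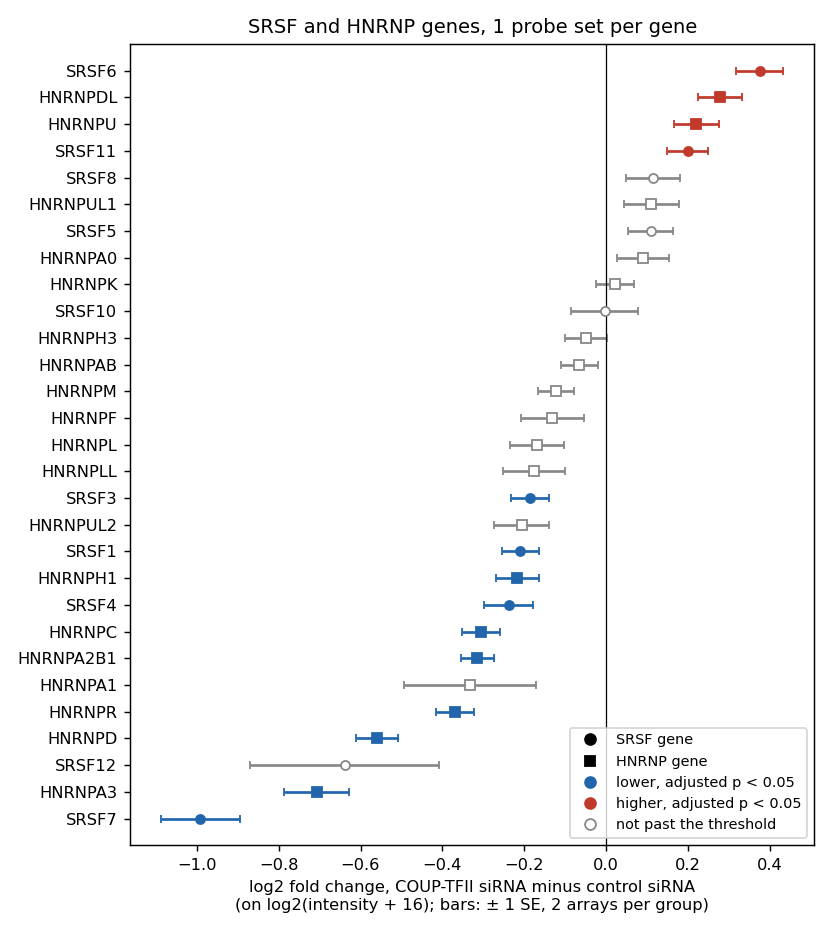
Log2 fold change (COUP-TFII siRNA minus control siRNA, on log2(intensity + 16)) of the 29 SRSF and HNRNP genes, 1 probe set per gene, with bars of 1 SE from limma (2 arrays per group) and genes ordered by their change. Circles are SRSF and squares HNRNP genes. Filled blue points mark the 10 genes that fell, filled red points the 4 that rose and open points the rest, with SRSF7 lowest at −0.99 and SRSF6 highest at 0.37. After centring on the housekeeping median 6 were lower and 8 higher, and after centring on the housekeeping mean 6 and 4.

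Among the SR proteins, SRSF7 had the largest fall. SRSF7 carries a zinc knuckle beside its RNA recognition motif and, like SRSF3, hands spliced mRNA to the export receptor NXF1. Its representative probe set 201129_at read 587 and 553 in the control arrays and 301 and 258 in the COUP-TFII siRNA arrays. Both COUP-TFII siRNA arrays lay below both controls, and the log2 fold change was −0.99 ± 0.10 (SE, n = 2 per group; limma adjusted p = 0.000119), or 1.99-fold. It passed in all 15 alternatives, but its size rested on the probe set: it was −0.53 with the 4 probe sets averaged and −0.40 with the brighter 214141_x_at in its place. All 4 were lower without overlap, and 201129_at and 214141_x_at passed. The other 2, 213649_at and 211439_at, were at −0.36 and −0.37 (limma adjusted p = 0.0561 and 0.253 over all probe sets).

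SRSF3, the smallest SR protein and a growth-promoting factor in several tumours, fell less on its representative probe set. That probe set, 208672_s_at, read 5716 and 5598 against 5103 and 4836, and its log2 fold change was −0.19 ± 0.05 (SE; limma adjusted p = 0.019). When single arrays were dropped, SRSF3 kept its call without COUP-TFII siRNA replicate 1 (limma adjusted p = 0.0432). It lost it without control replicate 1 (0.204), control replicate 2 (0.16) or COUP-TFII siRNA replicate 2 (0.105), and it did not pass after centring on the housekeeping median (−0.06). Another probe set of the gene, 208673_s_at, went from 848 and 817 to 548 and 518 (log2 fold change −0.63 ± 0.07, SE; limma adjusted p = 0.00117 over all probe sets).

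SRSF1, the founding SR protein and an oncogene when overexpressed, read 3343 and 3322 in the control arrays and 2875 and 2885 in the COUP-TFII siRNA arrays. SRSF4, a long-tailed SR protein, read 1114 and 1158 against 972 and 949. Neither gene's groups overlapped, and the log2 fold changes were −0.21 ± 0.05 for SRSF1 (SE; limma adjusted p = 0.0105) and −0.24 ± 0.06 for SRSF4 (SE; limma adjusted p = 0.0201). Both lost their calls whichever array was dropped (limma adjusted p of 0.0531 to 0.13 for SRSF1 and 0.0725 to 0.183 for SRSF4), and also after centring on the housekeeping median (−0.08 and −0.11). Averaging the probe sets of SRSF4 gave −0.03 (limma adjusted p = 0.938). Only 2 of these 5 probe sets were above the array-wide median, and the rest read 1 to 21.5.

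SRSF6, an SR protein known for regulating the splicing of tau, moved the other way. Its probe set 208804_s_at read 1108 and 1060.5 in the control arrays and 1396 and 1424 in the COUP-TFII siRNA arrays, and the groups lay apart. The log2 fold change was 0.37 ± 0.06 (SE; limma adjusted p = 0.00171), and 0.50 after centring on the housekeeping median. It passed in 12 of 15 alternatives and lost its call without control replicate 2 (limma adjusted p = 0.0551). Its other probe set, 206108_s_at, read 494 and 439 against 494 and 476, with overlap, and averaging the pair gave 0.22 (limma adjusted p = 0.0547).

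The remaining SR genes did not pass in the fit of 1 probe set per gene. SRSF10, which represses splicing when dephosphorylated during mitosis or heat shock, was at −0.0038 on its representative, but its probe set 204299_at fell from 758 and 693 to 579 and 540.5 (log2 fold change −0.36 ± 0.07, SE; limma adjusted p = 0.0198 over all probe sets, and 0.0943 to 0.191 with 1 array left out; −0.24 and 0.0783 after centring on the housekeeping median). SRSF5 and SRSF8 were at 0.11 and 0.11. SRSF12, an antagonist of other SR proteins, was near the floor, at 15.1 and 13.4 in the control arrays and 6.14 and 1 in the COUP-TFII siRNA arrays, and did not pass (limma adjusted p = 0.0837).

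**Figure D2:**
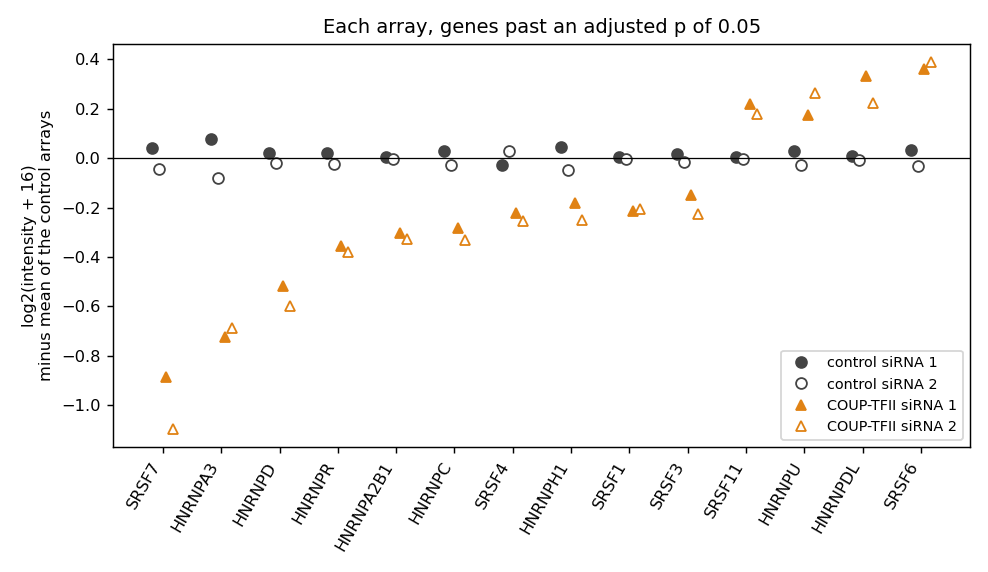
Each of the 4 arrays for the 14 genes past an adjusted p of 0.05, as log2(intensity + 16) minus the mean of the 2 control arrays (circles control siRNA, triangles COUP-TFII siRNA, filled replicate 1 and open replicate 2). In each gene the triangles lie on one side of the circles, and in SRSF7 the COUP-TFII siRNA arrays lie farthest below.

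Among the hnRNPs, the falls were largest in HNRNPA3 and HNRNPD. HNRNPA3, a relative of hnRNP A1 that takes part in RNA trafficking, read 788 and 705 on 211929_at in the control arrays and 445 and 456 in the COUP-TFII siRNA arrays. The COUP-TFII siRNA arrays were both lower (log2 fold change −0.71 ± 0.08, SE; limma adjusted p = 0.000274). It passed in all 15 alternatives. Its other probe sets also fell, 211932_at from 662 and 584 to 281 and 309 (−1.04) and 211930_at from 420.3 and 487 to 349 and 336 (−0.39).

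HNRNPD, also called AUF1, binds AU-rich elements and speeds the decay of mRNAs that carry them. Its probe set 200073_s_at read 3668 and 3560.1 in the control arrays and 2517 and 2379 in the COUP-TFII siRNA arrays (log2 fold change −0.56 ± 0.05, SE; limma adjusted p = 8.55e-05). This fall too passed in all 15 alternatives, and was −0.36 with its probe sets averaged. Of its 9 probe sets 6 were above the array-wide median, and these were lower by 0.47 to 0.71 on the log2 scale, 4 of them past the threshold. The other 3 read 6.52 to 24.0 in all arrays.

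HNRNPDL and HNRNPD-DT lie near HNRNPD, and both had higher means after COUP-TFII siRNA. HNRNPDL read 2621 and 2595 on 209067_s_at in the control arrays and 3289 and 3049.7 in the COUP-TFII siRNA arrays (log2 fold change 0.28 ± 0.05, SE; limma adjusted p = 0.0053). Of its 6 probe sets 4 rose, by 0.19 to 0.38, while 209068_at read 247 and 223 against 199 and 236, with overlap. HNRNPDL kept its call when COUP-TFII siRNA replicate 2 was dropped (limma adjusted p = 0.0215) and lost it when control replicate 1 (0.0899), control replicate 2 (0.108) or COUP-TFII siRNA replicate 1 (0.0504) was. HNRNPD-DT, a non-coding RNA that starts 577 bases from HNRNPD on the other strand, read 47.6 and 61.2 against 72.0 and 80.1 and did not pass (log2 fold change 0.39 ± 0.18, SE; limma adjusted p = 0.181).

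HNRNPR, HNRNPA2B1 and HNRNPC fell by smaller amounts. HNRNPR, which binds RNA in neurites and nuclei, read 4144 and 4019 in the control arrays and 3183 and 3130.4 in the COUP-TFII siRNA arrays (log2 fold change −0.37 ± 0.05, SE; limma adjusted p = 0.000518). HNRNPA2B1, a core hnRNP that also sorts RNA into exosomes, read 8875 and 8837 against 7168 and 7059.9 (−0.32 ± 0.04, SE; limma adjusted p = 0.000565). HNRNPC, which binds uridine tracts and keeps cryptic Alu exons out of mRNA, read 4934 and 4742 against 3976 and 3845 (−0.31 ± 0.05, SE; limma adjusted p = 0.00161). In each of these genes the groups lay apart by more than the spread within either. HNRNPR and HNRNPA2B1 passed with any array left out, and HNRNPC passed except without control replicate 1 (limma adjusted p = 0.0679). All 5 bright probe sets of HNRNPC fell, by 0.26 to 0.37. Of the 3 bright ones of HNRNPA2B1 only 205292_s_at passed. The others were 225932_s_at at −0.11 and 225107_at at −0.36 (limma adjusted p = 0.424 and 0.0723 over all probe sets). In HNRNPR 208765_s_at also fell (−0.40), while 232004_at was at −0.01, with overlap (limma adjusted p = 0.975 over all probe sets). With 1 prior variance for all genes none of these 3 passed (limma adjusted p of 0.0824, 0.103 and 0.117, in the order named).

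HNRNPH1, which binds runs of guanine, and HNRNPU, a scaffold attachment factor that organises chromatin, gave small changes in opposite directions. HNRNPH1 read 4039.6 and 3787 in the control arrays and 3442 and 3283 in the COUP-TFII siRNA arrays (log2 fold change −0.22 ± 0.05, SE; limma adjusted p = 0.0163). After centring on the housekeeping median HNRNPH1 was at −0.09 (limma adjusted p = 0.327). HNRNPU read 2089 and 2006 against 2315 and 2459.7 on 200593_s_at (log2 fold change 0.22 ± 0.05, SE; limma adjusted p = 0.0192). The probe set 200594_x_at of HNRNPU, open to cross-hybridisation, read 4491 and 4349 against 4662 and 4472, with overlap. With it as the representative HNRNPU was at 0.05 (limma adjusted p = 0.557), and with its probe sets averaged at 0.09 (0.683). Both genes lost their calls whichever array was dropped (limma adjusted p of 0.0682 to 0.206 for HNRNPH1 and 0.0503 to 0.207 for HNRNPU).

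The other 11 hnRNP genes did not pass. HNRNPM, a splicing regulator of mesenchymal isoforms, read 4837 and 4733 against 4372 and 4421 (log2 fold change −0.12 ± 0.04, SE; limma adjusted p = 0.0837). HNRNPK, which binds cytosine-rich sequences, read 4193 and 4243 against 4364 and 4201 on 200097_s_at, with overlap, and 4230.4 and 4151 against 3817 and 3716 on 200775_s_at, without (limma adjusted p = 0.0787 over all probe sets). HNRNPA1, the best known hnRNP repressor of exons, was at −0.33 ± 0.16 on 222040_at, with 195 and 190.2 against 179 and 125, and at 0.02 on 214280_x_at, with 2415 and 2452 against 2465 and 2456. The rest were HNRNPUL2 (−0.21), HNRNPLL (−0.18), HNRNPL (−0.17), HNRNPF (−0.13), HNRNPAB (−0.07), HNRNPH3 (−0.05), HNRNPA0 (0.09) and HNRNPUL1 (0.11).

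Probe sets of one gene disagreed most in SRSF11, whose protein interacts with the splicing factor U2AF. Tested one by one, 25 of 115 member probe sets fell (21.7%) and 8 rose (6.96%), against 5.67% and 6.51% of all 54613 probe sets. Dropping control replicate 1 left 1 lower, against 0.738% of all probe sets, and dropping control replicate 2 left 3, against 0.857%. Dropping COUP-TFII siRNA replicate 1 or COUP-TFII siRNA replicate 2 left 13 each, against 2.79% and 2.26%. The number higher was 1 when COUP-TFII siRNA replicate 2 was dropped and 0 when any of the others was (limma; 8 higher each at an unadjusted p under 0.05), against 0.575% to 1.86% of all probe sets. Only SRSF11 had calls in both directions, 1 of 27 members with several probe sets (3.7%), against 0.513% of such genes on the array. Its probe set 200686_s_at went from 2057 and 2044 to 2386 and 2326 (log2 fold change 0.20 ± 0.05, SE; limma adjusted p = 0.0387), and 200685_at from 307 and 309 to 446 and 399 (0.43 ± 0.08, SE; limma adjusted p = 0.0163). The probe set 213742_at went from 148 and 141 to 66.4 and 60.7 (−1.01 ± 0.14, SE; limma adjusted p = 0.0033). The fall of 213742_at kept its call without COUP-TFII siRNA replicate 1 (limma adjusted p = 0.0452) and lost it without control replicate 1 (0.0983), control replicate 2 (0.0918) or COUP-TFII siRNA replicate 2 (0.0549). In all 3 the groups lay apart, in opposite directions, and the fourth, 236948_x_at, read 6.26 to 11.2. Averaging the 4 turned the gene's log2 fold change from 0.20 to −0.09 (limma adjusted p = 0.56). With any array left out the representative did not pass (limma adjusted p of 0.0592 to 0.167). Which transcripts each probe set matches was not analysed here.

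The disagreement itself was tested by comparing each probe set's change with the mean change of its gene's other probe sets (limma diffSplice). It passed for 4 of 27 members (14.8%), SRSF11, SRSF3, SRSF7 and HNRNPD, against 5.75% of all genes with several probe sets. It passed for 5 of 113 member probe sets (4.42%), against 2.93% of all those tested. In SRSF11 the difference was −1.23 for 213742_at (adjusted p = 0.000779) and 0.70 for 200685_at (adjusted p = 0.0158, diffSplice). In SRSF3 the probe set 208673_s_at stood 0.51 below the others (a difference of −0.51, diffSplice adjusted p = 0.0461), and in SRSF7 201129_at differed by −0.61 (adjusted p = 0.0312, diffSplice). In HNRNPD the probe set that differed, 205183_at (0.77, diffSplice adjusted p = 0.0231), read only 8.54 to 24.0 and overlapped between groups. With a pseudocount of 1 only the difference of 213742_at kept its call. With the replicate block 208673_s_at, 201129_at and 200685_at lost theirs, and 201129_at also lost its call without _x_at probe sets. With 1 array left out, which leaves 1 array in a group, these differences lost their calls in nearly every fit. Calls became rarer over all genes as well. The differences then ranged from −1.26 to −1.20 for 213742_at, 0.63 to 0.76 for 200685_at and −0.52 to −0.49 for 208673_s_at. They ranged from −0.74 to −0.485 for 201129_at and 0.53 to 1.02 for 205183_at.

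**Figure D3:**
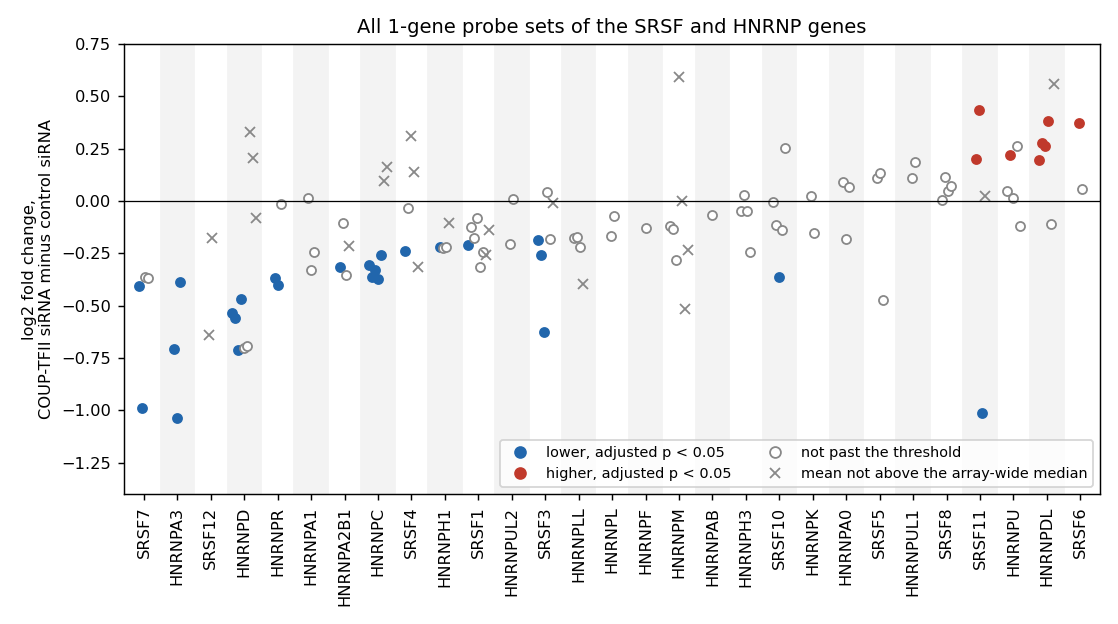
Log2 fold change of all 115 probe sets of the 29 genes (each a point, vertical axis, COUP-TFII siRNA minus control siRNA), grouped by gene in the order of the gene's change. Blue points fell, red points rose, open points did not pass, and crosses had a mean not above the array-wide median. SRSF11 holds red points and a blue point at −1.01, while the blue points of HNRNPC lie within 0.12 of each other.

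**Figure D4:**
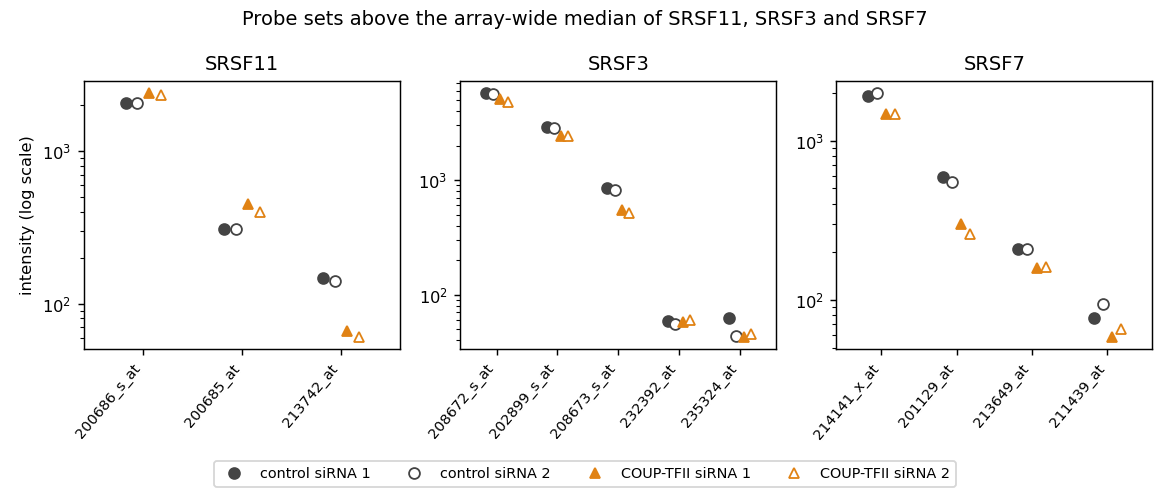
Intensity (log axis) of the probe sets of SRSF11, SRSF3 and SRSF7 above the array-wide median in each array, circles for control siRNA and triangles for COUP-TFII siRNA. In SRSF11 the triangles lie above the circles for 200686_s_at and 200685_at and below them for 213742_at. In SRSF7 they lie below in all 4 probe sets.

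Across members, 26 genes had several probe sets above the array-wide median, and in 15 of these all such probe sets leaned one way. The same share over all genes was not computed. Of the member genes past the threshold, 13 had another probe set that did not pass, dim ones counted (limma, over all probe sets). HNRNPH1 and HNRNPLL were the most even, with spans of 0.0064 and 0.05 between their lowest and highest log2 fold change. After SRSF11 (1.45), the widest spans were in SRSF3 (0.67), HNRNPA3 (0.65), SRSF7 (0.63), SRSF10 (0.62) and SRSF5 (0.61). In SRSF5 the span came from 210077_s_at, at 56.7 and 59.7 against 27.8 and 49.2, while 212266_s_at read 1940.3 and 1855 against 2093 and 2000.1; neither passed. All 22 probe sets not above the median failed to pass (limma, adjusted over all probe sets). Such probe sets rarely passed on the whole array. Over all 54613 probe sets 3094 fell and 3554 rose, and 3002 and 3478 of these were among the 27120 above the median.

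Genes that act with these proteins were read from 7 lists, against the same 10.3% lower and 12.7% higher over all genes. After centring on the housekeeping median the shares over all genes were 6.84% and 20.8%. With 1 array left out fewer genes passed over all genes as well, at the shares given above beside the member counts. Of 8 measured kinases that phosphorylate SR proteins, SRPK1 fell from 2287 ± 64 to 1794 ± 84 (SD, n = 2), while SRPK2 rose from 649 ± 47 to 808 ± 15 and DYRK1A from 1084 ± 114 to 1291 ± 9. That is 12.5% lower and 25% higher, with a median of −0.09 that was 0.04 after the centring. Of the 2 rises 1 passed without control replicate 1 and 0 in each of the other fits with an array left out (limma; 1 at an unadjusted p under 0.05), and the fall did not pass without control replicate 2.

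Among 23 SR-related cofactors 4 fell (17.4%) and 2 rose (8.7%), with ARGLU1 at a log2 fold change of −0.44, LUC7L2 at −0.42 and LUC7L at 0.33 (median −0.03). Centring on the housekeeping median turned the split to 2 lower and 4 higher. Dropping control replicate 1 left 1 lower and 1 higher, control replicate 2 left 0 and 0 (limma; 6 and 1 unadjusted), COUP-TFII siRNA replicate 1 left 4 and 0, and COUP-TFII siRNA replicate 2 left 2 and 0 (limma; 2 higher unadjusted in each of the last pair). Of 13 hnRNPs known under other symbols 1 fell (7.69%) and 3 rose (23.1%), with a median log2 fold change of 0.04. In this list PTBP1, PCBP3 and RALYL were read by dim probe sets, at 21.9 to 41.4, 24.25 to 36.6 and 7.2 to 11.9. The rises were PCBP4 by 0.63, RALY by 0.36 and CIRBP, a cold-inducible RNA-binding protein, by 0.35 on the log2 scale. Dropping control replicate 1 left 0 rises (limma; 3 unadjusted) and dropping COUP-TFII siRNA replicate 2 left 1.

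Of 25 Sm, U1 and U2 snRNP genes, which form the core of the spliceosome, 11 fell (44.0%) and 0 rose, against 10.3% and 12.7% of all genes (limma; 13 and 3 at an unadjusted p under 0.05), with a median of −0.14. SNRPA1, a U2 protein, fell from 2443 ± 42 to 1871 ± 86, the Sm protein gene SNRPB from 4419 ± 73 to 3552 ± 31 and SNRPF from 2915 ± 26 to 2389 ± 234 (SD, n = 2). The calls of these small falls rested on the scaling. Centring on the housekeeping median gave 2 lower and 5 higher, against 6.84% and 20.8% of all genes. SNRPD3, at a log2 fold change of −0.10 before centring, belongs both to this list and to the housekeeping genes. Quantile normalization gave 9 and 2, against 11.1% and 13.0%, and scaling to 1 median 10 and 2, against 10.5% and 13.9%. With 1 array left out fewer genes passed, in this list and over all genes. The list's median log2 fold change then ranged from −0.17 to −0.12. Of 22 tri-snRNP and LSM genes 8 fell (36.4%) and 2 rose (9.09%), with LSM3 at −0.72 ± 0.06, LSM4 at −0.65 ± 0.06 and LSM6 at −0.52 ± 0.06 (SE, log2 scale), ring proteins of the U6 snRNP. After the same centring 7 genes of that list were lower and 4 higher. Dropping control replicate 1 or control replicate 2 left 4 lower and 0 higher, COUP-TFII siRNA replicate 1 left 8 and 1, and COUP-TFII siRNA replicate 2 left 6 and 0 (limma; 2 higher unadjusted in each of these fits).

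Of 31 other splicing regulators 4 fell (12.9%) and 2 rose (6.45%), against 10.3% and 12.7% of all genes, and centring on the housekeeping median turned this to 1 lower and 3 higher. RBFOX2, which drives mesenchymal exon choice, fell from 1234 ± 83 to 668 ± 96 (SD, n = 2; log2 fold change −0.87, limma adjusted p = 0.000256), while KHDRBS3 and RBM5 were both at −0.30. Of 9 measured factors of nonsense-mediated decay, the pathway that removes unproductively spliced transcripts of SR genes, 2 fell (22.2%) and 3 rose (33.3%), or 1 and 4 after the centring, with MAGOHB at −0.63, UPF2 at 0.48 and UPF1 at 0.46. With 1 array left out fewer genes passed, in both of these lists and over all genes. Of the regulators, 2 were lower when COUP-TFII siRNA replicate 1 was dropped and 1 when any of the others was, and 0 were higher in each case (limma; 0 to 2 higher at an unadjusted p under 0.05). Of the decay factors, dropping either control array left 0 lower (limma; 2 unadjusted) and 1 higher, dropping COUP-TFII siRNA replicate 1 left 1 and 2, and dropping COUP-TFII siRNA replicate 2 left 1 and 1.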

How the data were processed

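Total RNA was extracted with Trizol, amplified and biotin-labelled with a 3′ IVT kit and read on 1-colour arrays, per the labels' protocols. The values the authors deposited are linear intensities, 1 per probe set and array. How they were summarised and normalized is not given in the sources used here. Intensities were used as log2(value + 16), without further scaling. The platform table named 1 gene for 41091 probe sets, and 41037 of these were matched by Entrez identifier to RefSeq (GRCh38.p14). The 62 control probe sets were left out.

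Groups were compared with limma 3.58.1 in R 4.3.3 (eBayes with an intensity trend, Benjamini-Hochberg, threshold 0.05), over all 54613 probe sets and over 19775 genes. A gene was represented by its brightest 1-gene probe set on average, leaving out _x_at probe sets where it had another. Only the gene fit is meant where no other is named. Probe set differences used limma's diffSplice, which models no intensity trend. There were 2 residual degrees of freedom. The scripts were tested on simulated data.

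The members and lists were chosen with earlier results of these data known. Array values are given for up to 10 falls and 10 rises past the threshold without overlap, for members with disagreeing probe sets and for the 5 brightest, and up to 3 genes per list. Other settings tried were the replicate block, other scalings (quantile, median and housekeeping), pseudocounts of 1 and 64, leaving out dim probe sets, 1 prior variance, other choices among a gene's probe sets, stricter thresholds, and dropping each array. Figures were drawn with matplotlib 3.10.9.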

Additional observations from a re-analysis of the deposited data

How the results depend on the processing

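Of the 14 genes past the threshold, 1 changed sign: averaging probe sets took SRSF11 from 0.199 to −0.0897 (limma adjusted p = 0.56). Of those not past it, 8 changed sign, in each case to a value that did not pass (limma). Averaging probe sets turned HNRNPA0 to −0.0091, HNRNPK to −0.066 and SRSF5 to −0.0766. Allowing _x_at probe sets turned HNRNPA1 to 0.0161. Centring on the housekeeping median turned HNRNPAB to 0.0599, HNRNPH3 to 0.0761, HNRNPM to 0.0043 and SRSF10 to 0.1221, and on their mean HNRNPH3 to 0.0139 and SRSF10 to 0.0598. Quantile normalization turned HNRNPAB to 0.0024, and scaling to 1 median turned SRSF10 to 0.0071. With 1 array left out HNRNPK ranged from −0.0058 to 0.0489 and SRSF10 from −0.1188 to 0.1111. Probe set differences that did not pass were not followed across settings. An adjusted p of 0.01 gave 6 member genes lower and 2 higher, against 6.66% and 7.33% of all genes. It gave 15 and 2 member probe sets, against 3.23% and 3.0% of all probe sets. It left 1 member with unequal probe sets, against 2.09% of all genes with several. A change of at least 1.5-fold left 2 genes lower and 0 higher (0 also at an unadjusted p under 0.05), against 4.6% and 4.62% of all genes. It left 6 and 0 probe sets (limma, 1 probe set higher unadjusted), against 2.93% and 2.81% of all probe sets. With 1 prior variance there were 3 genes lower and 0 higher (2 unadjusted), against 4.12% and 3.81% of all genes. There were 0 probe sets in either direction (limma, 26 lower and 4 higher unadjusted), against 0.65% lower and 0.315% higher of all probe sets. Averaging probe sets gave 6 genes lower and 1 higher, against 7.75% and 8.25% of all genes. Centring on the housekeeping median gave 6 genes lower and 8 higher, against 6.84% and 20.8% of all genes. It gave 16 probe sets lower, against 4.15% of all probe sets. Centring on their mean, added after seeing the data, gave 6 genes lower, against 8.62%. Unequal probe set change was called for 1 member with a pseudocount of 1 and 9 with 64. Over all genes with several probe sets the shares were 3.27% and 16.2%. With 1 array left out, genes lower ranged from 5 to 7, genes higher from 0 to 2, probe sets lower from 1 to 13, probe sets higher from 0 to 1, and members with unequal probe sets from 0 to 1. The cause was not tested.

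The replicate numbers are not said to pair the arrays, and same-numbered deviations correlated at 0.0101. With the replicate block there were 12 genes lower and 4 higher, against 11.5% and 14.4% of all genes. There were 28 and 8 probe sets, against 6.64% and 7.77% of all probe sets. The block left 2 members with unequal probe sets, against 2.72% of all genes with several. The number of arrays limits the precision, and probe sets near the floor carry little signal over background.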

Other observations

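Probe sets that the platform table assigns to several genes were not members, but some read family genes that have no probe set of their own. For SRSF9, listed with GATC, 200044_at went from 5053 and 4804 to 4204 and 4209.6 and 201698_s_at from 5992 and 6099 to 5307 and 5086, log2 fold changes of −0.23 and −0.22 (limma adjusted p = 0.0216 and 0.0225 over all probe sets). For SRSF2, listed with the microRNA gene MIR636, 200754_x_at (−0.27) and 214882_s_at (−0.19) fell and 200753_x_at (−0.12) did not pass. All 3 probe sets listing HNRNPA3 with its pseudogene HNRNPA3P1 fell, by 0.58, 0.91 and 0.95 on the log2 scale, while the pseudogene's own probe set read 1.29 to 12.9. HNRNPH2 was at −0.03 and the 2 probe sets shared by HNRNPA1 with its copies were at −0.05 and −0.06, none of them past the threshold.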
